A study of Danio rerio with 6 samples.

Results

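Solute carriers are membrane proteins that move small molecules and ions across the plasma membrane and the membranes of organelles. The genes described here are slc39a13, slc40a1, slc1a4, slc6a13, slc17a6a and slc35a5, taken by name as the solute carrier genes for zinc, iron, neutral amino acids, GABA, glutamate and nucleotide sugars. They are 6 of the 99 genes in the table, and all 6 were found. Levels are given in FPKM, fragments per kilobase of transcript at a common library size, which corrects for transcript length. Genes averaging 1 FPKM or more were tested, which left 67 genes of the table and 5 of the 6 solute carrier genes. The exception was slc40a1. The deposited annotation placed 6 of the 6 in a membrane, against 22 of all 99 genes.

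MZdgcr8 embryos of the AB strain were compared with wild-type embryos of the same strain, both collected 4.5 hours after fertilization at 30% epiboly, when the cell sheet has begun to spread over the yolk. MZdgcr8 embryos carry neither maternal nor zygotic Dgcr8, a protein needed to make canonical microRNAs. The sources used here name neither the allele nor the number of clutches. Each genotype had 3 RNA-seq libraries, each from a pool of 50 whole embryos, and no label ties a pool to a clutch. P-values therefore reflect the spread of these libraries, which may be technical. In a pool of whole embryos, fewer cells of a type and less RNA per cell cannot be told apart.

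The embryo at this stage lives on its yolk and has neither neurons nor a circulation. The set holds carriers used by most cells, such as those of zinc and nucleotide sugars, as well as carriers best known from later tissues. Slc39a13 (ZIP13 in mammals) releases zinc from intracellular stores into the cytosol. Slc40a1 (ferroportin) exports iron from cells, and in zebrafish it is needed to pass yolk iron to the embryo. Slc1a4 (ASCT1 in mammals) exchanges neutral amino acids such as serine and alanine across the plasma membrane. Slc6a13 (GAT2 in mammals) takes up GABA with sodium and chloride. Slc17a6a is one of the zebrafish counterparts of the mammalian carrier VGLUT2, which fills synaptic vesicles with glutamate. Slc35a5 belongs to the nucleotide sugar carriers of the Golgi, which supply building blocks for glycosylation.

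Counts summed over the 99 genes ran from 358811 to 576050 per library, and relative library depth from 0.791 to 1.13. Both were lowest in replicate 3 of each genotype, with 358811 counts and a depth of 0.865 in MZdgcr8 embryos, and 367826 and 0.791 in wild type. In each genotype replicate 3 was unlike the other replicates: log2(FPKM + 1) over the 67 tested genes correlated across genes at 0.996 between replicates 1 and 2 of each genotype, but at 0.805 and 0.801 with replicate 3 in MZdgcr8 embryos and at 0.901 and 0.891 in wild type. Genotype differences are therefore also given without replicate 3. Of 23 marker genes of the enveloping layer, yolk syncytial layer, neural cells and germ layers, 3 were in the table, of which slc40a1 and slc17a6a are themselves described here. The other, the keratin gene krt97, was at 31.1, 26.9 and 331 FPKM in MZdgcr8 replicates 1, 2 and 3, and at 145, 144 and 302 FPKM in wild type. This marker of the outer cell layer was thus lower in MZdgcr8 embryos in replicates 1 and 2, and highest in replicate 3 of each genotype.

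The zinc carrier gene was the highest of the 6 and the iron exporter gene the lowest in all 6 libraries, with the carriers of amino acids, GABA, nucleotide sugars and glutamate between them in an order that varied. The zinc carrier gene supplied 51.3%, 59.2% and 72.9% of the summed FPKM of the 6 genes in MZdgcr8 replicates 1, 2 and 3, and 59.9%, 54.7% and 73.1% in wild type replicates 1, 2 and 3. That sum was 39.5, 34.5 and 17 FPKM in MZdgcr8 embryos and 41.9, 44.8 and 16.8 FPKM in wild type. It was thus lowest in replicate 3 of each genotype.

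**Figure D1:**
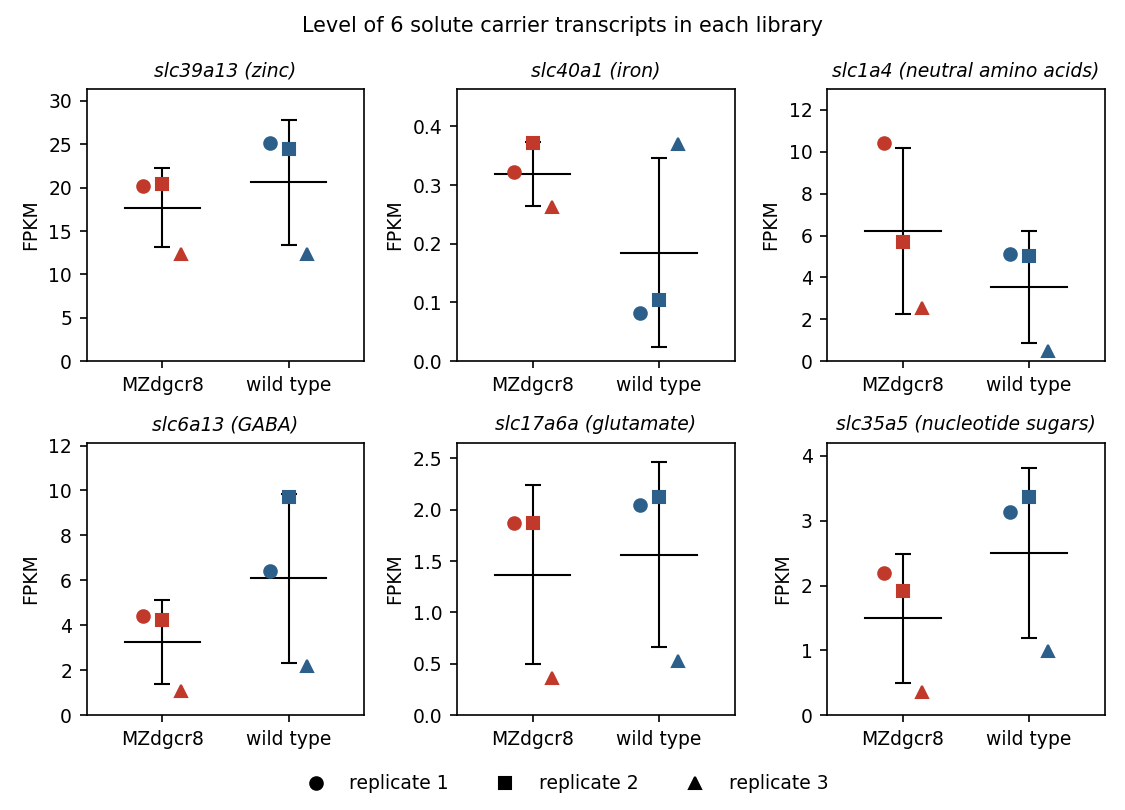
FPKM of the 6 solute carrier genes, 1 panel a gene, in MZdgcr8 and wild-type libraries. Points are libraries with a symbol for each replicate number, horizontal lines are means and bars are SD (n = 3); replicate 3 is the lowest library of its genotype in every panel except wild type for slc40a1, where it is the highest.

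The zinc carrier gene slc39a13 (ENSDARG00000000442) was at 20.2, 20.4 and 12.4 FPKM in MZdgcr8 replicates 1, 2 and 3, and at 25.1, 24.5 and 12.3 FPKM in wild type replicates 1, 2 and 3. Replicates 1 and 2 were lower in MZdgcr8 embryos, while in replicate 3 the genotypes were level. The means were 17.7 ± 4.59 FPKM in MZdgcr8 embryos and 20.6 ± 7.23 FPKM in wild type (SD, n = 3 each). The mean ranked 30th of 99 genes in MZdgcr8 embryos and 27th in wild type.

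The iron exporter gene slc40a1 (ENSDARG00000000241) was below 1 FPKM in every library. It was at 0.322, 0.371 and 0.263 FPKM in MZdgcr8 replicates 1, 2 and 3, from 102, 125 and 68 counts. In wild type replicates 1, 2 and 3 it was at 0.0814, 0.104 and 0.37 FPKM, from 27, 32 and 87 counts. The genotypes overlapped, because wild type replicate 3 lay with the MZdgcr8 libraries and above the other wild-type libraries.

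The neutral amino acid carrier gene slc1a4 (ENSDARG00000000551) was at 10.4, 5.69 and 2.56 FPKM in MZdgcr8 replicates 1, 2 and 3. In wild type it was at 5.12, 5.04 and 0.465 FPKM. It was higher in MZdgcr8 embryos in each replicate number, but MZdgcr8 replicate 3 lay below wild type replicates 1 and 2, so the groups overlapped. The means were 6.22 ± 3.95 and 3.54 ± 2.66 FPKM in MZdgcr8 and wild-type embryos (SD, n = 3 each).

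The GABA carrier gene slc6a13 (ENSDARG00000000730) went the other way. It was at 4.43, 4.23 and 1.08 FPKM in MZdgcr8 replicates 1, 2 and 3, against 6.41, 9.69 and 2.17 FPKM in wild type. It was lower in MZdgcr8 embryos in each replicate number, and the groups overlapped only through wild type replicate 3. A paralog listed in the table as slc6a13l was at 0 FPKM in the MZdgcr8 libraries and at 0.0584, 0 and 0.0276 FPKM in wild type. The sources used here do not say how reads shared by these paralogs were assigned.

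The glutamate carrier gene slc17a6a (ENSDARG00000001127) was at 1.87, 1.87 and 0.36 FPKM in MZdgcr8 replicates 1, 2 and 3, and at 2.05, 2.12 and 0.523 FPKM in wild type. These values differed little between the genotypes beside the drop of replicate 3. The mean was 1.37 ± 0.873 FPKM in MZdgcr8 embryos and 1.56 ± 0.902 FPKM in wild type (SD, n = 3 each), so this carrier of synaptic vesicles passed the minimum by a small margin.

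The nucleotide sugar carrier gene slc35a5 (ENSDARG00000000001) was at 2.2, 1.92 and 0.359 FPKM in MZdgcr8 replicates 1, 2 and 3, against 3.14, 3.36 and 0.986 FPKM in wild type. It was lower in MZdgcr8 embryos in each replicate number. The groups overlapped, since wild type replicate 3 lay below MZdgcr8 replicates 1 and 2.

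Neighbours in the order of levels were not all separated. In MZdgcr8 embryos the means ran, from high to low, through slc39a13, slc1a4, slc6a13, slc35a5, slc17a6a and slc40a1. In wild type slc6a13 stood above slc1a4, and in wild type replicate 3 slc1a4 also lay below slc35a5 and slc17a6a. Within each library slc39a13 exceeded the next gene by at least 1.94-fold in MZdgcr8 embryos and by at least 2.53-fold in wild type. The genes slc35a5 and slc17a6a were within 1.18-fold of each other in MZdgcr8 embryos, and slc35a5 was 1.54-fold, 1.58-fold and 1.89-fold higher in wild type replicates 1, 2 and 3. In replicate 3 the iron exporter gene came close to slc17a6a, which was 1.37-fold above slc40a1 in MZdgcr8 embryos and 1.41-fold above it in wild type. The gene slc35a5 was 1.37-fold above slc40a1 in MZdgcr8 replicate 3 but 2.67-fold in wild type replicate 3. In wild type replicate 3 slc1a4 was the nearest, 1.26-fold above slc40a1.

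Setting MZdgcr8 beside wild-type embryos asks which transcripts differ when microRNA production is disabled. Over all 6 libraries no solute carrier gene passed the test. The largest estimates were a lower level of the GABA carrier gene slc6a13 (log2 fold change -0.91 ± 0.74 SE, adjusted p = 0.898) and a higher level of the amino acid carrier gene slc1a4 (0.81 ± 0.92, adjusted p = 0.898). The nucleotide sugar carrier gene slc35a5 was at -0.74 ± 0.83, slc39a13 at -0.22 ± 0.41 and slc17a6a at -0.19 ± 0.87 on the same scale. The test was edgeR's quasi-likelihood test with Benjamini-Hochberg adjustment over 67 genes, in which 0% of all genes were called and 5 had an unadjusted p under 0.05. DESeq2, run with the same relative depths as edgeR, and limma also called 0 of 67. With no minimum on the level DESeq2 called 4 of 99 genes, with no solute carrier gene among them. No tested carrier gene had groups without overlap, while 12 of 67 genes did (17.9%).

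Taking account of the replicate number raised the calls in the whole table to 5 of 67 (7.46%), with no solute carrier gene among them. In that blocked edgeR fit slc6a13 was at log2 -0.91 ± 0.20 SE (adjusted p = 0.0647) and slc1a4 at 1.18 ± 0.49 (adjusted p = 0.163). The value of slc35a5 was -0.91 ± 0.35 (adjusted p = 0.149). With no minimum on the level the blocked fit called 0 of 99 genes. Over the 3 pairs of equal replicate number, 4 of the 5 tested carrier genes kept 1 sign, slc6a13, slc35a5 and slc17a6a lower and slc1a4 higher. The same held for 42 of all 67 genes (62.7%). With replicate 3 set against replicates 1 and 2 as the only replicate term, edgeR called 26 of 67 genes (38.8%), 15 of them lower (22.4%). In that fit slc6a13 (-0.93 ± 0.19, adjusted p = 0.0256) and slc35a5 (-0.90 ± 0.25, adjusted p = 0.0439) fell, and slc1a4 was at 1.20 ± 0.46 (adjusted p = 0.102). The fit assumes the same genotype difference in both sets of replicates, a split chosen with these data known. For slc35a5 and slc1a4 the difference changed between the sets by the interaction term given below, so their values average unequal differences.

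Within replicates 1 and 2, 3 of the 5 tested carrier genes fell in MZdgcr8 embryos. The GABA carrier gene slc6a13 was 1.86-fold lower (log2 -0.89 ± 0.19 SE, edgeR adjusted p = 0.00711). The nucleotide sugar carrier gene slc35a5 was 1.58-fold lower (-0.66 ± 0.11, adjusted p = 0.00276), and the zinc carrier gene slc39a13 was 1.22-fold lower (-0.29 ± 0.07, adjusted p = 0.015). The amino acid carrier gene slc1a4 was at 0.66 ± 0.26 (adjusted p = 0.0661) and slc17a6a at -0.15 ± 0.10 (adjusted p = 0.213). In this fit 43 of 67 genes were called (64.2%), 27 of them lower (40.3%). The 3 carrier genes called were all lower, and 5 genes are too few to set them apart from that 40.3%. TMM scaling gave 20 lower and 21 higher calls in place of 27 and 16. Groups did not overlap in these 4 libraries for 5 of the 5 carrier genes and for 60 of 67 genes (89.6%). The median log2 change was -0.29 over the 5 carrier genes and -0.15 over all 67. In the same libraries the marker krt97 had a log2 ratio of MZdgcr8 to wild type of -2.32, and the part of the cell layer it marks in the carriers' differences was not tested.

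Of the decreases in replicates 1 and 2, that of slc35a5 stayed called under every alternative run for it. That of slc39a13 was not called with TMM scaling (log2 -0.18, adjusted p = 0.0822), with DESeq2's size factors (-0.14, adjusted p = 0.0982), or without either MZdgcr8 library, and that of slc6a13 was not called in edgeR with the replicate block (-0.87 ± 0.21, adjusted p = 0.0545) or, with no minimum, without MZdgcr8 replicate 2 (-0.86, adjusted p = 0.0619).

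For slc1a4 the value within replicates 1 and 2 rested on 1 library. MZdgcr8 replicate 1 was 1.83-fold above MZdgcr8 replicate 2, the largest difference between those libraries among the 67 tested genes, where the median size was 0.07 on the log2 scale. Wild type replicates 1 and 2 differed by 1.02-fold for this gene. Leaving out MZdgcr8 replicate 2 gave a log2 change of 1.03 with a call in edgeR, and leaving out MZdgcr8 replicate 1 gave 0.16 with none.

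The gene slc6a13 showed a like spread in wild type. Wild type replicate 2 was 1.51-fold above wild type replicate 1, the 2nd largest difference among the 67 genes, with a median size of 0.08 on the log2 scale. Its level was below both wild-type values in both MZdgcr8 libraries of that set. With no minimum on the level, its decrease in replicates 1 and 2 stayed called with the replicate block (edgeR adjusted p = 0.0259). Its log2 change was -1.16 without wild type replicate 1 and -0.57 without wild type replicate 2, called in both edgeR fits.

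The iron exporter gene slc40a1 could be tested only with no minimum on the level. In that edgeR fit of replicates 1 and 2, which called 51 of 99 genes (51.5%) and 21 as higher (21.2%), slc40a1 rose by 3.74-fold in MZdgcr8 embryos (log2 1.90 ± 0.33 SE, adjusted p = 0.00109). All levels involved were below 0.4 FPKM. Over the 6 libraries the log2 change was 0.79 ± 0.71 (adjusted p = 0.874 in edgeR with no minimum, 0% of genes called). With no minimum, slc1a4 was also called higher in replicates 1 and 2 (0.66 ± 0.23, adjusted p = 0.0383), but not with the replicate block (0.60 ± 0.23, adjusted p = 0.106), TMM scaling (0.74, adjusted p = 0.0677) or DESeq2's size factors (0.79, adjusted p = 0.0584).

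The genotype difference changed in replicate 3 for some of these genes. In replicate 3 slc1a4 was 5.5-fold higher in MZdgcr8 embryos, the 3rd highest difference of the 67 genes, against 2.03-fold in replicate 1 and 1.13-fold in replicate 2. For slc35a5 the MZdgcr8 level was 0.364 of the wild-type level in replicate 3, against 0.7 in replicate 1 and 0.572 in replicate 2. Each of these ratios sets 1 library against 1. In replicate 3 the lower level was 0.465 FPKM (84 counts) for slc1a4 in wild type. For slc35a5 it was 0.359 FPKM (64 counts) in MZdgcr8 embryos, so both ratios involve a level below 1 FPKM. For slc40a1 the sign turned, with MZdgcr8 at 0.711 of wild type in replicate 3 but 3.95-fold and 3.58-fold above it in replicates 1 and 2. For slc6a13 the MZdgcr8 level was 0.691, 0.437 and 0.496 of wild type in replicates 1, 2 and 3.

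An interaction of genotype with replicate set (replicate 3 against replicates 1 and 2) was called for slc1a4 (log2 1.78 ± 0.54 SE, adjusted p = 0.0391) and for slc35a5 (-0.80 ± 0.22, adjusted p = 0.0269), 2 of the 5 tested carrier genes against 28 of 67 genes in edgeR (41.8%), 11 with a positive and 17 with a negative term (10 and 27 with TMM). With no minimum it was also called for slc40a1 (-2.39 ± 0.50, adjusted p = 0.00922, 35.4% of 99 genes). The estimates for slc39a13 (0.30 ± 0.13), slc6a13 (-0.12 ± 0.37) and slc17a6a (-0.38 ± 0.17) did not pass. With a single replicate 3 library in each genotype, the error of these terms rests on replicates 1 and 2. With counts divided by 4 neither slc1a4 (adjusted p = 0.0862) nor slc35a5 (adjusted p = 0.102) was called.

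**Figure D2:**
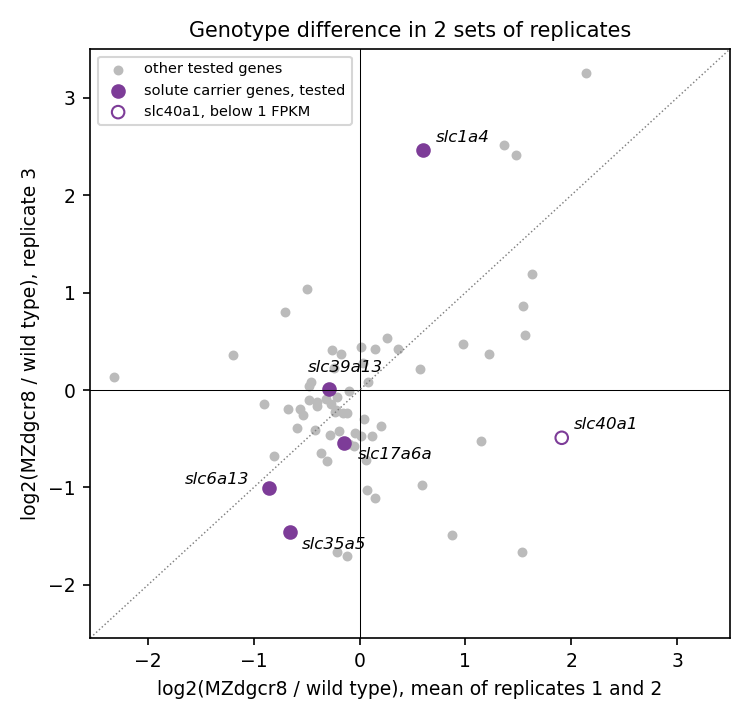
Log2 ratio of MZdgcr8 to wild-type FPKM, as the mean of replicates 1 and 2 (x axis) and in replicate 3 (y axis), for the 67 tested genes and slc40a1; the dotted line marks equal differences. The genes slc6a13 and slc35a5 are below 0 on both axes, slc1a4 is above 0 on both, and slc40a1 is above 0 only on the x axis.

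Ratios between these genes within a library do not depend on library depth or scaling, and some separated the genotypes across all 3 replicates. The amino acid carrier gene slc1a4 exceeded the GABA carrier gene slc6a13 in every MZdgcr8 library, by 2.35-fold, 1.34-fold and 2.38-fold in replicates 1, 2 and 3. In wild type the ratio of slc1a4 to slc6a13 was 0.798, 0.52 and 0.214, below 1 in every library. The value of 0.214 rests on slc1a4 at 0.465 FPKM (84 counts) in wild type replicate 3. The value of 2.35 comes from MZdgcr8 replicate 1, where slc1a4 was 1.83-fold above MZdgcr8 replicate 2. The mean log2 ratio was 0.97 ± 0.47 in MZdgcr8 embryos and -1.16 ± 0.97 in wild type (SD, n = 3 each), a difference of 2.13 (exact two-sided permutation p = 0.1, the smallest that 3 against 3 libraries allow). The permutation exchanged libraries freely between the genotypes. It thus ignored the replicate numbers, although replicate 3 stood apart in each genotype.

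**Figure D3:**
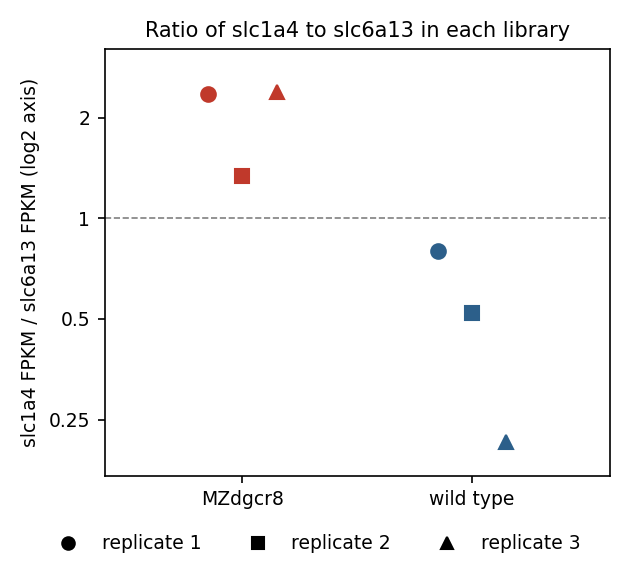
Ratio of slc1a4 FPKM to slc6a13 FPKM in each library on a log2 axis, with a symbol for each replicate number and a dashed line at equal levels. The 3 MZdgcr8 libraries lie between 1.34 and 2.38 and the 3 wild-type libraries between 0.214 and 0.798. In wild type replicate 3 slc1a4 was at 0.465 FPKM (84 counts).

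The ratio of slc35a5 to slc17a6a was the tightest of those that separated the genotypes. It was 1.18, 1.03 and 0.998 in MZdgcr8 replicates 1, 2 and 3, against 1.54, 1.58 and 1.89 in wild type. The mean log2 ratio was 0.09 ± 0.13 in MZdgcr8 embryos and 0.73 ± 0.16 in wild type (SD, n = 3 each), although both genes were several-fold lower in replicate 3. There both genes were below 1 FPKM in each genotype. Their replicate 3 counts were 64 each in MZdgcr8 embryos, and 161 (slc35a5) and 85 (slc17a6a) in wild type. The ratio of slc6a13 to slc17a6a was likewise lower in MZdgcr8 embryos, at 2.37, 2.26 and 2.99, against 3.13, 4.57 and 4.15 in wild type. The ratio of slc6a13 to slc35a5 overlapped, at 2.01, 2.2 and 3.0 in MZdgcr8 embryos and 2.04, 2.89 and 2.2 in wild type.

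Among the 10 ratios between the 5 tested carrier genes, 6 did not overlap between the genotypes, and 4 of these 6 contained slc1a4. Over all 2211 pairs of tested genes the share was 19.9%. The 10 ratios share genes and are not independent, and the genes were chosen with these data known. Over the 15 ratios of the 6 genes, each of the 6 had an exact permutation p of 0.1 and a Benjamini-Hochberg adjusted p of 0.25.

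In replicate 3, 5 of the 5 tested carrier genes fell relative to replicates 1 and 2, with genotype in the edgeR model, against 42 of 67 genes (62.7%), with 10 genes higher. TMM scaling gave 27 lower and 19 higher genes and DESeq2's size factors 24 and 24. The amino acid carrier gene slc1a4 was 5.34-fold lower (log2 -2.42 ± 0.54 SE, adjusted p = 0.0104) and the glutamate carrier gene slc17a6a 4.52-fold lower (-2.18 ± 0.28, adjusted p = 0.00143). The genes slc35a5 (4.23-fold, -2.08 ± 0.29) and slc6a13 (3.85-fold, -1.95 ± 0.22) followed, and slc39a13 was 1.82-fold lower (-0.86 ± 0.10, adjusted p = 0.00118). Levels in replicate 3 lay below both other replicates in both genotypes for these 5 genes and for 45 of 67 genes (67.2%). The median was -2.08 over the 5 carrier genes and -0.78 over the 67 genes. The minimum of 1 FPKM was set on the mean of all 6 libraries. In replicate 3 slc17a6a and slc35a5 were below 1 FPKM in each genotype, so they passed through replicates 1 and 2. The count of 5 of 5 and these medians are thus partly set by the minimum. With no minimum slc40a1 went the other way, at 0.92 ± 0.63 (edgeR adjusted p = 0.268). The fall of slc39a13 was not called with DESeq2's size factors in edgeR (log2 -0.22, adjusted p = 0.12), a scaling that moved the median of the 67 genes to -0.14.

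The size of that fall differed by genotype for slc1a4. In wild type replicate 3 was 10.9-fold below replicates 1 and 2, the lowest of the 67 genes, and in MZdgcr8 embryos it was 3.01-fold below them. For slc35a5 the fall was larger in MZdgcr8 embryos (5.73-fold) than in wild type (3.29-fold). The folds were 4.03 in MZdgcr8 embryos and 3.63 in wild type for slc6a13, 5.2 and 3.98 for slc17a6a, and 1.64 and 2.02 for slc39a13. The interaction terms above are the tests of these differences. The marker krt97 moved the other way, with log2 ratios of replicate 3 to replicates 1 and 2 of 3.52 in MZdgcr8 embryos and 1.07 in wild type. Its part in the fall of the carrier genes was not tested.

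**Figure D4:**
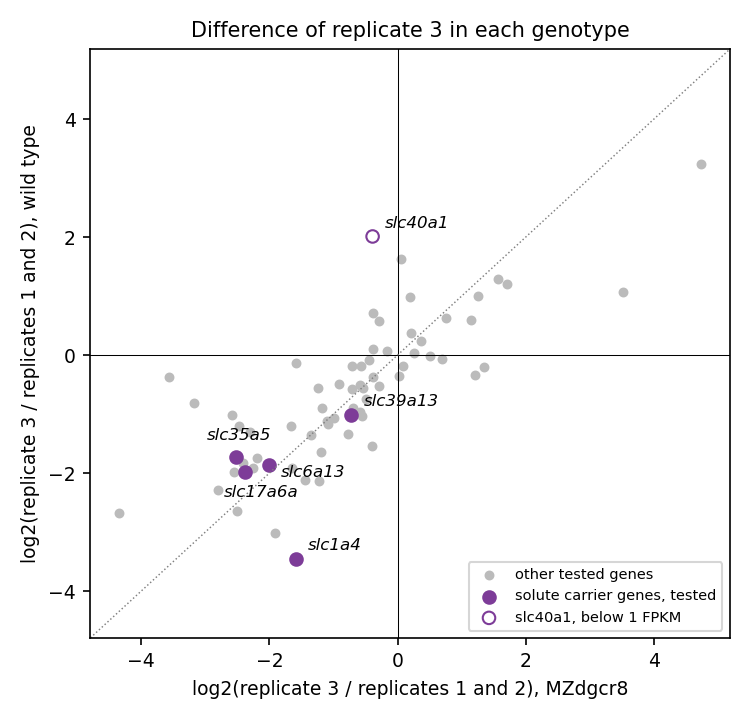
Log2 ratio of replicate 3 to the mean of replicates 1 and 2 in MZdgcr8 (x axis) and wild type (y axis), for the 67 tested genes and slc40a1; the dotted line marks equal shifts. All 5 tested solute carrier genes lie below 0 on both axes, with slc1a4 lowest of all tested genes in wild type (-3.45), while slc40a1 is at -0.39 in MZdgcr8 and 2.01 in wild type.

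The genes whose profiles over the 6 libraries were most like each carrier gene were taken by Pearson's correlation of log2(FPKM + 1). These genes were znf511 (0.996) and pcgf1 (0.980) for slc39a13, scfd1 (0.986) and lcmt2 (0.978) for slc6a13, and unk (0.997) and pms1 (0.995) for slc17a6a. For slc35a5 they were scfd1 (0.996) and kifc1 (0.994). For slc1a4 the closest, scrib (0.939) and tomm34 (0.938), had lower values by this measure. Spearman's rank correlation was 0.94 for both, against 0.77 to 1.00 for the other pairs named here. All points share the libraries and their depth. In each genotype replicate 3 lies far from the other points, so the Pearson values mostly describe that contrast.

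Among themselves the carrier genes fell into unlike profiles. The genes slc39a13, slc6a13, slc17a6a and slc35a5 correlated at 0.921 to 0.983 with each other over the 6 libraries, by the same measure. The gene slc1a4 correlated with them at 0.564 (slc6a13), 0.604 (slc35a5), 0.756 (slc39a13) and 0.789 (slc17a6a). For slc6a13 the value with slc35a5 (0.983) was above that with lcmt2 (0.978). These values too mostly describe the contrast of replicate 3, which lay below both other replicates in both genotypes for 45 of 67 genes (67.2%). They were not set against the correlations over all pairs of tested genes.

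Of 59 partner genes in 5 lists (nucleotide sugar and Golgi, zinc, neutral amino acid, GABA and glutamate, and iron handling), 0 were in the table used here, so the pathways around these carriers were not analysed here.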

How the data were processed

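RNA was sequenced from whole zebrafish embryos in 6 libraries. The deposited table holds FPKM and counts, both named as such in its column headers. The counts were taken as unnormalized. The submitters' processing notes list Bowtie 0.12.2, HISAT2 2.0 and StringTie 1.3.0 with no role, and mm8, a mouse build. The sources used here name no zebrafish build, so coordinates and sequences are left out.

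All 99 gene identifiers were matched in a table of gene names. Because the table holds 99 genes, its totals are not depths; relative depth came from the ratio of count to FPKM over the 58 genes whose counts exceeded 200 in all libraries (largest deviation 0.0044 on the log2 scale) and served as library size. No count is 1, 2 or 3 (11 are 4), so 1 count may not be 1 read and no counting intervals are given. edgeR 4.0.16 (quasi-likelihood, two-sided, R 4.3.3) was fitted on the 67 genes averaging 1 FPKM or more, with an adjusted p threshold of 0.05. The SE printed with an edgeR estimate was the size of the log2 change divided by the square root of the test's F statistic. It therefore restates the test and is not a separate estimate of error. The fits of genotype alone over all 6 libraries were tested on simulated data that held no replicate effect. The simulated spread between libraries was smaller than that of the real ones. The fits within replicates 1 and 2, and those with a replicate term or an interaction, were not tested in that way. DESeq2 1.42.0, limma 3.58.1 (pseudocounts 1, 0.1 and 5) and other scalings were alternatives. The DESeq2 fit used the relative depths as its size factors. The scaling named DESeq2's size factors was the relative log expression (RLE) scaling, computed and fitted in edgeR.

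Each library's deviations from its genotype mean correlated with those of the same-numbered library at 0.77, 0.76 and 0.80 (replicates 1, 2 and 3). The numbers were taken to pair the samples, and no label explains them. The crossed values were 0.82 for MZdgcr8 replicate 1 with wild type replicate 2 and 0.71 for MZdgcr8 replicate 2 with wild type replicate 1, so the check sets replicate 3 apart and does not tell replicates 1 and 2 apart. The pairing of replicates 1 and 2 in the fits with a replicate block was thus assumed. Replicates 1 and 2 were kept as separate samples. The chi-square between their counts, divided by its degrees of freedom, was 21.7 in MZdgcr8 embryos and 27.1 in wild type. These values take 1 count as 1 read, which is not known here. They therefore cannot decide whether replicates 1 and 2 differed beyond counting noise. The genes described, the gene lists, the split of replicates and the naming rule were chosen with earlier results of these data known. That rule took the 6 genes, other carriers by name, and 2 genes for each tested carrier. These 2 had the highest correlation with it once carrier genes and placeholder names were left out.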

Additional observations from a re-analysis of the deposited data

Results flagged for a closer look

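For 3 solute carrier genes the genotype difference in replicate 3 was unlike that in replicates 1 and 2, by the interaction term in edgeR. The term was 1.78 on the log2 scale for slc1a4, whose excess in MZdgcr8 embryos was larger in replicate 3. It was -0.80 for slc35a5, whose deficit was larger there. It was -2.39 for slc40a1, fitted with no minimum on the level, which was higher in MZdgcr8 embryos in replicates 1 and 2 and lower in replicate 3. The term was called for 2 of the 5 tested carrier genes and for 28 of 67 genes (41.8%). With no minimum it was called for these 3 of the 6 carrier genes and for 35 of 99 genes (35.4%). The carrier genes are too few to set them apart from those shares. With counts divided by 4 the term was not called for slc1a4 (adjusted p = 0.0862 in edgeR) or slc35a5 (adjusted p = 0.102). What sets replicate 3 apart was not tested.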

How the results depend on the processing

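The count of 0 called genes over the 6 libraries became 5 with the replicate block, 2 with DESeq2's size factors in edgeR, 26 with replicate set as a term and 43 in replicates 1 and 2 alone. With no minimum the calls among 99 genes were 0 with the block and 0 with DESeq2's size factors in edgeR. They were 21 with replicate set as a term and 4 in the DESeq2 fit. On the 67 genes, leaving out 1 library gave 0 to 3 calls, the 3 without MZdgcr8 replicate 3. With replicate set as a term slc6a13 (log2 -0.93, adjusted p = 0.0256 in edgeR) and slc35a5 (-0.90, adjusted p = 0.0439) were called lower. That fit assumes the same genotype difference in both sets of replicates, while the interaction was called for slc35a5. The block ended the call of slc6a13 in replicates 1 and 2 over the 67 genes (adjusted p = 0.0545 in edgeR). With no minimum slc6a13 stayed called there (adjusted p = 0.0259). The block also ended the call of slc1a4 there with no minimum, and no other call of a carrier gene. The log2 change of slc17a6a over the 6 libraries was 0.26, 0.05 and 0.09 without MZdgcr8 replicate 3, wild type replicate 1 and wild type replicate 2, in place of -0.19, with no call; leaving out 1 library gave -0.61 to 0.26. Of the other log2 changes of the 6 genes, the interaction of slc6a13 turned its sign (0.01 in place of -0.12, no call) with DESeq2's size factors and no minimum. DESeq2's size factors moved the median of the 67 genes in replicates 1 and 2 from -0.15 to -0.01. With TMM the interaction was also called for slc17a6a (-0.55, adjusted p = 0.0481 in edgeR). With DESeq2's size factors and no minimum it was called for slc39a13 (0.43, adjusted p = 0.044) and not for slc35a5 (-0.67, adjusted p = 0.0786). Leaving out single libraries in replicates 1 and 2 was added after the data were seen, and leaves 1 library in an arm, assumed to vary like the others. Values under 1 FPKM rest on few counts, and depth as reads is unknown.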
